A study of Mus musculus with 21 samples.

Results

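Cavins and caveolins are the coat proteins of caveolae, and the 5 genes described here are Cavin1, Cavin2, Cavin3, Cav1 and Cav2. They were chosen by symbol from the 54446 gene IDs of the deposited count table, with earlier results of these data known. Differences between the cell populations may have entered that choice, so population differences of the 5 genes are given as a description, with no test. All 5 genes were found in the table. Of these, 4 passed the filter on low counts that left 21100 genes for testing, and Cav1 did not.

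The libraries came from mouse bone marrow of strain C57BL/6 at an age of 12 weeks, either Phf6 knockout (KO) or wild type (WT). Phf6 is a chromatin-associated zinc finger gene of the nucleus, known from mutations in leukaemia. LT-HSC stands for the long-term stem cells of the blood, and the progenitors downstream of them are MPP2, which leans to megakaryocytes and red cells, and MPP3, which leans to myeloid cells. The groups held 3 KO LT-HSC and 2 WT LT-HSC libraries, 4 KO MPP2 and 4 WT MPP2 libraries, and 4 KO MPP3 and 4 WT MPP3 libraries, each made from 100 to 200 sorted cells. The cells were sorted on lineage markers, Sca-1, cKit, CD150 and CD48. The KO allele, and any Cre driver it may need, is not given in the sources used here.

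Caveolae are flask-shaped pits of the plasma membrane, rich in cholesterol and sphingolipids, that flatten under tension and hold signalling proteins. Caveolins are integral membrane proteins that oligomerise into the caveolar scaffold, and cavins are cytosolic proteins that bind the caveolin-rich membrane from the inside as a second coat. In the tissues where the pits are best known (endothelium, fat and muscle) both families are abundant, and without Cav1 or Cavin1 non-muscle cells form few of them. Cavin2 was first purified from platelets as a phosphatidylserine-binding protein.

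Total counts ran from 18892723 to 31611366 per library, with a median of 26158938, and 20260 to 28501 genes had a count. Phf6 had 43 to 395 counts in the 11 KO libraries and 1545 to 5204 counts in the 10 WT libraries, and its groups did not overlap. The sort markers followed the labels. Slamf1, which encodes CD150, averaged 58.8 CPM in LT-HSC, 48.6 CPM in MPP2 and 0.636 CPM in MPP3, while Cd48 averaged 10.4 CPM in LT-HSC, 374 CPM in MPP2 and 502 CPM in MPP3. CPM are counts scaled to a fixed library size, after TMM scaling. In 2 libraries immunoglobulin genes took a large share of counts, 45.8% in KO MPP2 1 and 25.8% in KO MPP3 1, against 2.67% to 4.02% in the other MPP2 libraries numbered 1 and 2 and at most 0.0880% in all the rest, and KO MPP3 2 had the fewest counts and a share of 1.54% on rRNA-associated genes. KO LT-HSC 3 had 20297 genes with a count, against 23786 to 24827 in the other LT-HSC libraries. The sample titles carry running numbers, under 100 for the libraries numbered 1 and 2 and over 100 for the rest. No WT LT-HSC library has a title number over 100, so among LT-HSC this split cannot be told apart from KO LT-HSC 3.

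Cav1 and Cav2 are neighbours on mouse chromosome 6, both on the plus strand, with 17219 bases from the end of Cav2 to the start of Cav1 in mm10. Cav2 (ENSMUSG00000000058.6) spans 17281185 to 17289115 and Cav1 (ENSMUSG00000007655.16) spans 17306335 to 17341452. The cavin genes lie apart. Cavin2 (ENSMUSG00000045954.7) is on the plus strand of chromosome 1 at 51289126 to 51302960, Cavin1 (ENSMUSG00000004044.9) on the minus strand of chromosome 11 at 100956733 to 100970887, and Cavin3 (ENSMUSG00000037060.3) on the minus strand of chromosome 7 at 105480083 to 105482300.

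The 250 bases before the start of Cav2, Cav1 and Cavin2 are shown because these genes differed most in where they were read out, Cav2 in every library, Cav1 in almost none, and Cavin2 in 2 of the 3 populations. The sequences are those of RefSeq on GRCm38.p6, the plus strand of chr6:17280935-17281184, chr6:17306085-17306334 and chr1:51288876-51289125. Capitals mark matches to the motifs searched.
Cav2: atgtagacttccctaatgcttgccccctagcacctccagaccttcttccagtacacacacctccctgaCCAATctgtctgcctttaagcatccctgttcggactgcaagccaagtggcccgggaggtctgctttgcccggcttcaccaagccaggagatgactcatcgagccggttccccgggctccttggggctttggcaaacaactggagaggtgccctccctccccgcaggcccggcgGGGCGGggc
Cav1: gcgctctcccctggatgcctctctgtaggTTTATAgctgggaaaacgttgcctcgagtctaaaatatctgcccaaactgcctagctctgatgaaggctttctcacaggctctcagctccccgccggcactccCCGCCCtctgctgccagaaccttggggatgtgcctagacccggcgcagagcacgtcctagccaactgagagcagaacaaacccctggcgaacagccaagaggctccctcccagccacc
Cavin2: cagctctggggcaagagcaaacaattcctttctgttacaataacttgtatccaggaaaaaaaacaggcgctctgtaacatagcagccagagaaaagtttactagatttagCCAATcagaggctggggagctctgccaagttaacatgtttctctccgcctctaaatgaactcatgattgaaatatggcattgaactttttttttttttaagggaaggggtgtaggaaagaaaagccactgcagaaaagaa
Matches were searched on both strands, and no 2 of those found overlapped. The Cav2 window held GGGCGG at 9 bases before the start and CCAAT at 182 bases before it. The Cav1 window held GGGCGG on the minus strand at 118 bases and TATAAA on the minus strand at 221 bases before the start. The Cavin2 window held only CCAAT, at 140 bases before the start. Among the 250-base windows of 32851 RefSeq promoters, GGGCGG occurred in 32.7%, CCAAT in 33.8% and TATAAA in 12.4%, so these matches are common. The other motifs searched were not found in the 3 windows shown. These were the GATA motif AGATAA, held by 9.99% of all windows, the RUNX motif TGTGGT, held by 14.0%, the E-box motif CAGGTG, held by 17.2%, and the ETS motif AGGAAG, held by 29.5%. The windows of Cav2 and Cav1 were alike in base composition, 62.0% and 59.6% GC with 10 CpG each, while that of Cavin2 had 40.4% GC and 2 CpG, against medians of 52.4% and 6 over all windows.

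Cavin1, without which caveolae do not form, was highest in stem cells, lower in MPP2 and lowest in MPP3, with about the same ratio at each step. Steps here are in level between populations and not in descent, as MPP2 and MPP3 lean to different lineages. It had 95.4, 106 and 179 CPM in KO LT-HSC and 74.6 and 87.9 CPM in WT LT-HSC. The levels were 22.7, 30.3, 40.9 and 55.0 CPM in KO MPP2 and 36.5, 29.4, 43.6 and 23.7 CPM in WT MPP2. In MPP3 they were 14.3, 17.1, 13.4 and 14.6 CPM in KO libraries and 12.8, 9.62, 7.82 and 8.39 CPM in WT libraries. Every LT-HSC library lay above every MPP2 library, and every MPP2 library above every MPP3 library. The first separation was seen in 2.83% of all genes tested, the second in 0.706%, and one of LT-HSC above MPP3 in 3.34%. The means were 109 ± 41.2 CPM in LT-HSC (SD, n = 5), 35.3 ± 11 CPM in MPP2 (n = 8) and 12.3 ± 3.31 CPM in MPP3 (n = 8), a ratio of 3.08 for the first step and 2.88 for the second. The lowest count behind these levels was 222, in WT MPP3 3. In bulk libraries such as these, fewer cells with a transcript and less of it per cell cannot be told apart.

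Cavin3, a cavin that binds protein kinase C delta and attaches to the coat through Cavin1, followed the same course at a lower count. It had 43.1, 59.9 and 71.0 CPM in KO LT-HSC and 57.1 and 69.2 CPM in WT LT-HSC. In MPP2 it had 12.7, 15.9, 23.6 and 14.5 CPM in KO libraries and 24.1, 18.2, 22.3 and 19.7 CPM in WT libraries. In MPP3 it had 7.73, 11.4, 4.30 and 4.34 CPM in KO libraries and 3.87, 6.61, 3.98 and 4.49 CPM in WT libraries. Again the 3 populations did not overlap, with KO MPP3 2 closest to the lowest MPP2 library. The means were 60.1 ± 11.2, 18.9 ± 4.27 and 5.84 ± 2.65 CPM for LT-HSC, MPP2 and MPP3 libraries, with step ratios of 3.18 and 3.23. A predicted gene on the other strand, Gm45667, shares 374 exon bases with Cavin3. It had 5 counts over all libraries, and how the counting treated reads shared by both is unknown.

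Of the 21100 genes tested, 16 (0.0758%) stepped down over LT-HSC, MPP2 and MPP3 with no overlap between any of the populations, and Cavin1 and Cavin3 were among them. Others among the 16, named after their values were seen, were Ptgs1, Tgm2, Tmem246, Ctnnal1, Tek, Pdzk1ip1, Gng11, Abcg2, Mmrn1, Nupr1, Esam, Gstt1 and Grb10. Several of these are known stem cell genes, such as Tek, the angiopoietin receptor, and Abcg2, the transporter behind dye exclusion by stem cells.

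Cavin2, which binds phosphatidylserine and shapes the pits by bending the membrane, was present in LT-HSC and MPP2 and close to nothing in MPP3. It had 167, 107 and 71.6 CPM in KO LT-HSC and 58.5 and 68.4 CPM in WT LT-HSC. In MPP2 it had 29.0, 17.4, 72.2 and 92.5 CPM in KO libraries and 36.3, 9.26, 91.6 and 117 CPM in WT libraries. In MPP3 it had 0, 7, 54 and 0 counts in KO libraries and 0, 2, 0 and 0 counts in WT libraries. The LT-HSC and MPP2 ranges overlapped, and every MPP2 library lay above every MPP3 library. Over all counts, 12207 in MPP2 and 63 in MPP3, the level in MPP2 was 200 times that in MPP3, with an exact 95% interval of 156 to 261 that covers counting error only. Of the 63 MPP3 counts, 54 came from KO MPP3 3. In the same library some early erythroid genes stood out, with Car1, Klf1 and Epor at 575, 52.6 and 11.7 CPM. The other 7 MPP3 libraries had at most 6.22, 5.07 and 0.951 CPM of them. Other listed erythroid markers, Car2, Hbb-bs, Hbb-bt, Alas2 and Slc4a1, were not highest there. Car2 had 1176 CPM, against 680 to 1605 CPM in the other 7. The whole erythroid list summed to 1879 CPM there, against 697 to 1625 CPM. The part of any of these genes in the Cavin2 counts was not tested.

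**Figure D1:**
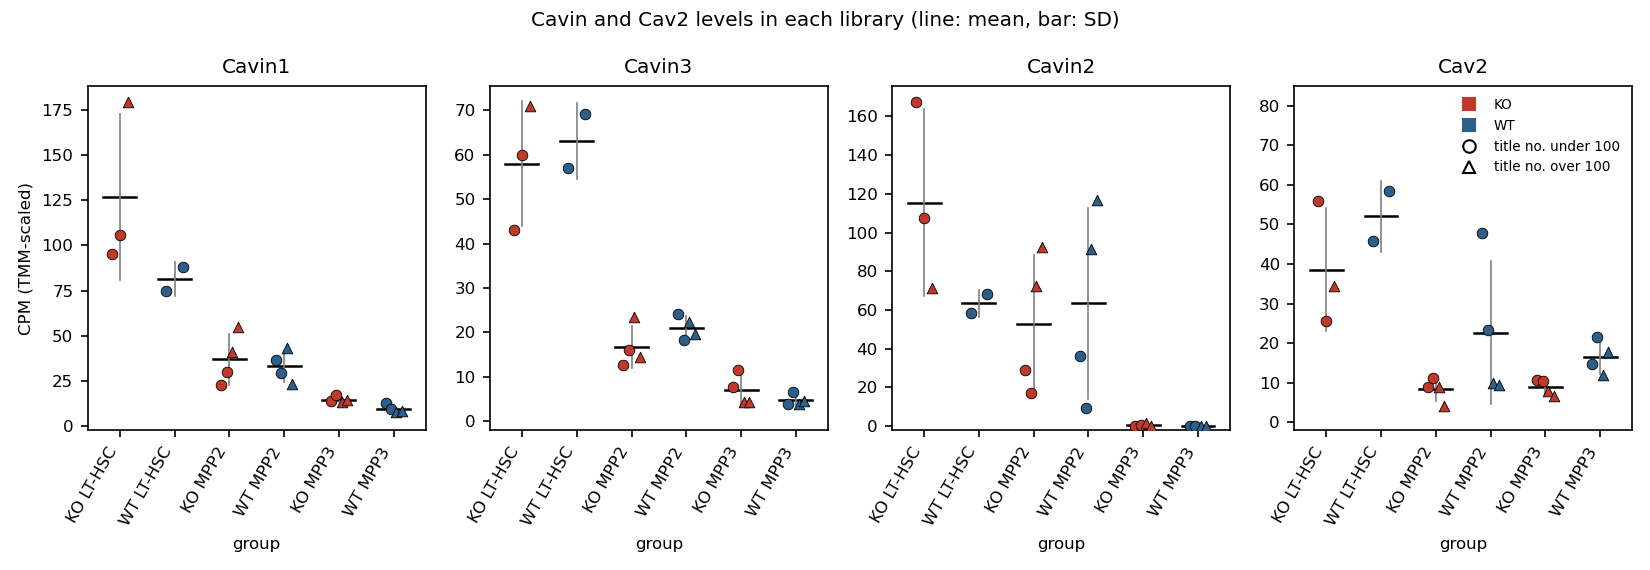
Levels of Cavin1, Cavin3, Cavin2 and Cav2 in CPM (TMM-scaled, linear axes) in each of the 21 libraries by group; KO is red and WT blue, circles are title numbers under 100 and triangles over 100, lines are group means and bars SD. Cavin1 and Cavin3 step down with no overlap between populations, Cavin2 is near 0 in MPP3 (at most 1.87 CPM), and Cav2 lies lower in KO than in WT MPP3.

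The caveolins parted from the cavins and from each other. Cav1, the main structural protein of caveolae outside muscle, was nearly absent, with 5 counts in all 21 libraries. There was 1 count in KO MPP2 1, 3 counts in KO MPP2 2 and 1 count in KO MPP3 1, and the other 18 libraries had 0. All 3 libraries with a count were KO with a title number under 100, and none reached more than 3 counts, the floor set for a count of 0, equal to between 0.0985 and 0.194 CPM. Cav2, which in most cells is known as the partner of Cav1 and leaves the Golgi apparatus poorly without it, had 115 to 1720 counts per library. Over the 5 LT-HSC libraries the level of Cav2 per kilobase of exon was at least 2186-fold higher than that of Cav1, 13.1 CPM per kilobase against a floor of 0.00601 CPM per kilobase for 3 counts over the group. The antisense gene Gm15581 spans both loci without sharing exon bases with either and had 41 counts, and the library kit does not mark strand.

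Cav2 had 55.9, 25.5 and 34.3 CPM in KO LT-HSC and 45.8 and 58.5 CPM in WT LT-HSC. In MPP2 it had 8.78, 11.3, 8.94 and 4.10 CPM in KO libraries and 47.8, 23.3, 9.85 and 9.52 CPM in WT libraries. In MPP3 it had 10.7, 10.4, 8.01 and 6.65 CPM in KO libraries and 14.6, 21.7, 11.9 and 17.7 CPM in WT libraries. Thus LT-HSC was highest on average, 44.0 ± 14.0 CPM (n = 5), and the means of MPP2 and MPP3 lay close together, 15.5 ± 14.2 and 12.7 ± 5.03 CPM (n = 8 each). WT MPP2 1 lay within the LT-HSC range, so the ranges of LT-HSC and MPP2 overlapped, whereas those of LT-HSC and MPP3 did not.

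The fitted differences between populations, averaged over KO and WT, put these courses side by side. From LT-HSC over MPP2, the log2 fold changes were 1.53 ± 0.21 for Cavin1, 1.69 ± 0.24 for Cavin3, 0.56 ± 0.66 for Cavin2 and 1.71 ± 0.34 for Cav2 (± SE). From MPP2 over MPP3 they were 1.56 ± 0.19 for Cavin1, 1.71 ± 0.22 for Cavin3 and 0.17 ± 0.31 for Cav2, while the fitted 8.95 of Cavin2 rests on MPP3 libraries near 0 and depends on the prior count. The value of Cavin2 from LT-HSC over MPP2 was 1.57 with the replicate block and 1.52 with a title number term, close to those of the other genes. Cav2 from MPP2 over MPP3 was 0.48 within title numbers under 100 and -0.42 within those over 100. The medians of the 4 genes were 1.61 for LT-HSC over MPP2, 3.24 for LT-HSC over MPP3 and 1.63 for MPP2 over MPP3, beside -0.03, -0.05 and -0.01 over all genes tested.

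Set against gene length, the family differed between populations in its make-up as well as its level. Summed over the 5 genes, levels per kilobase of exon were 88.0 to 126 CPM in LT-HSC, 26.1 to 59.5 CPM in MPP2 and 8.15 to 14.9 CPM in MPP3, with no overlap. In LT-HSC, Cavin1 made up 21.4% to 39.6% of the sum, Cavin2 18.5% to 44.1%, Cavin3 20.9% to 39.3% and Cav2 7.07% to 16.5%. In MPP2, Cavin2 ranged most widely, from 10.4% to 64.2%, and Cav2 took 2.21% to 28.2%. In MPP3, Cavin2 took at most 6.57%, and the sum was shared by Cavin1, Cavin3 and Cav2 with medians of 32.8%, 29.7% and 34.9%. In that population the share of Cav2 was 20.9% to 27.1% in KO libraries and 42.7% to 51.3% in WT libraries, which did not overlap. This last comparison was picked after the shares were seen and has no test.

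**Figure D2:**
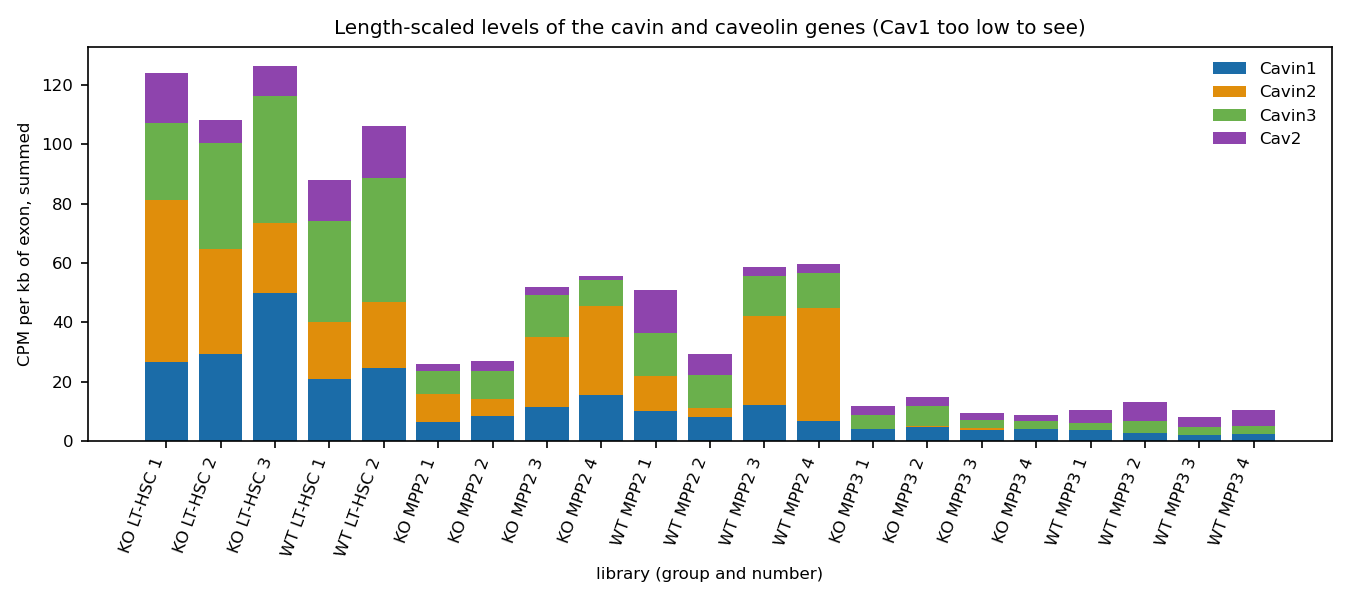
Stacked bars give the level per kilobase of exon (CPM per kb, linear axis from 0) of Cavin1, Cavin2, Cavin3 and Cav2 in each library. The summed bars run from 88.0 to 126 in LT-HSC, 26.1 to 59.5 in MPP2 and 8.15 to 14.9 in MPP3; in MPP2 the orange Cavin2 band is widest in the libraries numbered 3 and 4, and in MPP3 the purple Cav2 band is a smaller share in KO than in WT.

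In MPP2, Cavin2 split the libraries by title number and not by genotype. The 4 libraries with title numbers over 100 had 72.2 and 92.5 CPM in KO and 91.6 and 117 CPM in WT, against 29.0 and 17.4 CPM in KO and 36.3 and 9.26 CPM in WT among the 4 with numbers under 100. The 2 sets did not overlap, and their means differed 4.06-fold. Such a separation, higher in the set over 100, was seen in 5.47% of all genes tested. What the title numbers stand for is not given in the sources used here. Cavin1 and Cavin3 overlapped between the sets, with ratios of 1.37 and 1.13. Cav2 also overlapped but leaned the other way, averaging 8.10 CPM over 100 and 22.8 CPM under 100. Without overlap, 7.45% of all genes were lower in the set over 100.

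Between the title number sets of MPP2, megakaryocyte and platelet transcripts differed in the same direction as Cavin2. The summed level of all 16 listed markers, among them Pf4, Itga2b and Gp9, was 1568 to 2309 CPM in MPP2 libraries with title numbers over 100 and 314 to 441 CPM in those under 100. It was 894 to 1535 CPM in LT-HSC and 85.4 to 138 CPM in MPP3, and all 16 markers had a count in each population. The lowest MPP3 sum, 85.4 CPM, was that of KO MPP3 3, which had the most Cavin2 counts of MPP3. Of the 16 markers, 1 was higher in LT-HSC than in MPP2 and 10 in LT-HSC than in MPP3 by edgeR (adjusted p under 0.05). In MPP2 over MPP3, 12 were higher and 1 was lower. Over all genes tested, 4.14%, 3.82% and 3.93% were higher in the first population of these 3 comparisons, and 3.68%, 2.59% and 2.94% were lower. The B and plasma cell markers separated the sets as well, the other way, with summed levels of 52.3 to 96.4 CPM over 100 and 19719 to 750139 CPM under 100. Of the 16 stem cell markers, 12 were higher in LT-HSC than in MPP2, 9 in LT-HSC than in MPP3 and 4 in MPP2 than in MPP3, and 0 were lower. This list holds Slamf1, Ly6a and Kit, the genes of sort markers. Slamf1 was among the calls of LT-HSC and of MPP2 over MPP3, which the sort on CD150 fixed beforehand. The summed stem cell markers ran the opposite way to Cavin2 within MPP2, 456 to 506 CPM over 100 and 636 to 1995 CPM under 100. Of the 12 erythroid markers, of which 11 were tested, 2 were higher in LT-HSC than in MPP3, 6 were higher in MPP2 than in MPP3 and 0 passed otherwise. They summed to 4427 to 6501 CPM over 100 and 2647 to 4775 CPM under 100, which overlapped. The part of any of these in the levels of Cavin2 and Cav2 was not tested. Within the set under 100 alone, the log2 fold change of Cavin2 from LT-HSC over MPP2 was 2.02, against 0.56 over all libraries.

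**Figure D3:**
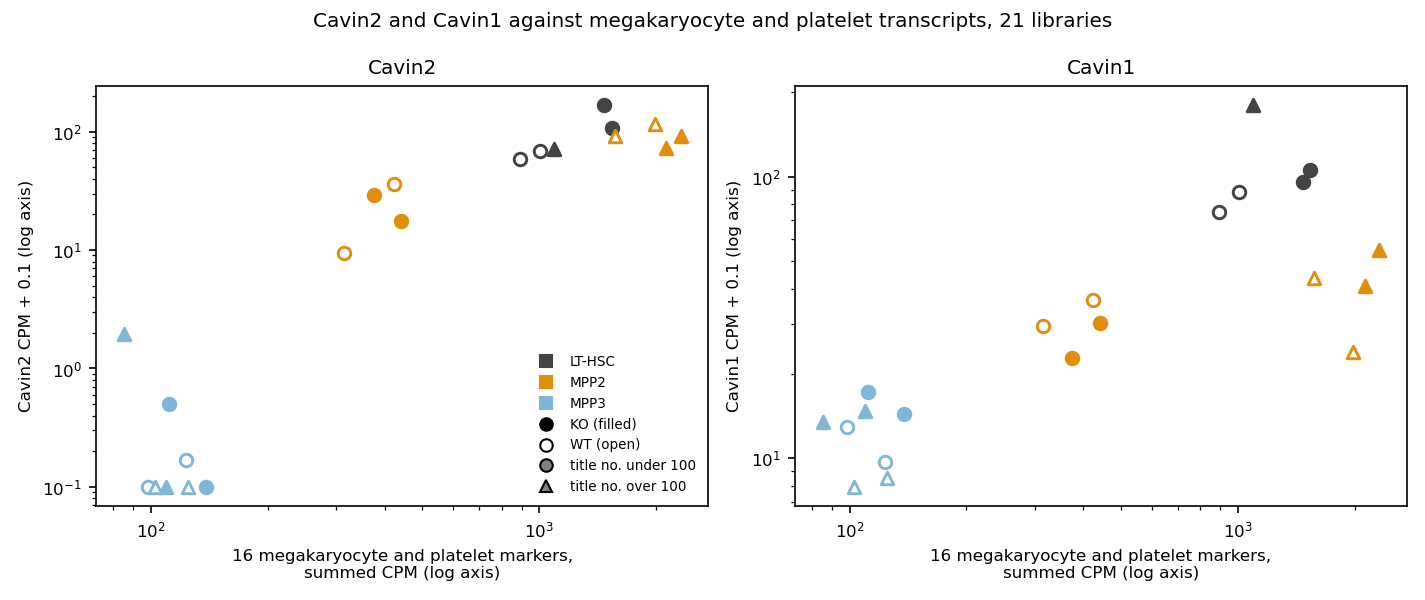
Each point is a library; the x axis is the summed CPM of 16 megakaryocyte and platelet markers and the y axis CPM + 0.1 of Cavin2 (left) or Cavin1 (right), all on log axes; filled is KO, open is WT, circles are title numbers under 100 and triangles over 100. For Cavin2, the MPP2 libraries with title numbers over 100 sit beside LT-HSC (72.2 to 117 CPM), while for Cavin1 all MPP2 libraries stay below LT-HSC.

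Among 9024 genes with a mean of at least 10 CPM, the pattern of Cavin1 over the 21 libraries was most like that of Cavin3 (Pearson r = 0.943 of log2 CPM). Among the next were Fhl1, a LIM domain protein, Grb10, an imprinted adaptor of growth factor receptors, and Scarf1, a scavenger receptor, with r of 0.940 to 0.931. Cavin3 was most like Cavin1, then Fhl1, Mmrn1, the platelet protein multimerin, Grb10 and Esam, an adhesion molecule of stem cells and endothelium, with r of 0.932 to 0.928. Cavin2 was most like Tgfbr3, a co-receptor of transforming growth factor beta, Clca3a1, Grb10, Nupr1 and Pros1, the anticoagulant protein S, with r of 0.957 to 0.935. Cav2 had other neighbours, namely Plscr4, Wls, the carrier of Wnt proteins, Triqk, Mecom, a transcription factor needed by stem cells, and Smpdl3a, with r of 0.919 to 0.888. The r between Cav2 and the cavins was 0.496 for Cavin1, 0.285 for Cavin2 and 0.610 for Cavin3, against 0.848 between Cavin1 and Cavin2. These values describe 21 libraries that fall into 3 populations, so the libraries of 1 population share much of what an r measures, and no p is attached.

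The KO and WT libraries did not differ past the threshold in any of the 4 tested genes. By edgeR, 0 of 4 had an adjusted p under 0.05 in LT-HSC, MPP2 or MPP3, where 0.00474%, 0.0142% and 0.00948% of all genes did. At an unadjusted p under 0.05 by edgeR the numbers were 0 in LT-HSC, 1 (Cav2) in MPP2 and 2 (Cavin1 and Cavin2) in MPP3. Of all 21100 genes tested, 513, 1417 and 1185 had such an unadjusted p in LT-HSC, MPP2 and MPP3. DESeq2, at an adjusted p under 0.05, also called 0 of the 4 genes in each.

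Cav2 was lower on average in KO in all 3 populations. KO averaged 38.6 ± 15.6 CPM and WT 52.1 ± 8.98 CPM in LT-HSC (SD, n = 3 and 2), with overlap, and the log2 fold change was -0.43 ± 0.55 (edgeR adjusted p = 1). In MPP2, KO averaged 8.28 ± 3.01 CPM and WT 22.6 ± 18.0 CPM (n = 4 each). The log2 fold change there was -1.45 ± 0.44, with an unadjusted p of 0.00383 and an edgeR adjusted p of 0.738. It rested in part on WT MPP2 1, without which it was -0.78, and it was -1.84 within title numbers under 100 and -0.58 within those over 100. None of the 4 genes was free of overlap in MPP2, against 2.5% of all genes, 1.08% with KO lower and 1.43% with KO higher. In MPP3, KO averaged 8.95 ± 1.96 CPM and WT 16.5 ± 4.18 CPM (n = 4 each). All 4 KO libraries lay below all 4 WT libraries, as did 1.62% of all genes, and the log2 fold change was -0.88 ± 0.44 (edgeR adjusted p = 0.880). It was -0.80 under and -1.02 over title number 100.

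Cavin1 was higher on average in KO in LT-HSC and MPP3. In LT-HSC, KO averaged 127 ± 45.8 CPM and WT 81.2 ± 9.40 CPM, and the log2 fold change was 0.64 ± 0.35 (edgeR adjusted p = 1). It was 0.31 without KO LT-HSC 3 and 0.34 within title numbers under 100. KO LT-HSC 3 also had stromal and fat cell markers summing to 44.5 CPM, against 6.14 to 13.9 CPM in the other 4 LT-HSC libraries, and an endothelial sum of 279 CPM, against 175 to 277 CPM, and their part was not tested. For Cavin1 the groups did not overlap in LT-HSC, nor did those of Cavin2, with KO higher in both, but with 3 against 2 libraries the same held for 7.53% of all genes. In MPP2 the groups overlapped, with a log2 fold change of 0.16 ± 0.27 (edgeR adjusted p = 0.993), and the direction turned between title numbers, -0.33 under and 0.50 over 100. In MPP3, KO averaged 14.9 ± 1.60 CPM and WT 9.66 ± 2.22 CPM (n = 4 each), a log2 fold change of 0.62 ± 0.27 (edgeR adjusted p = 0.880). All 4 KO libraries lay above all 4 WT libraries, as in 1.07% of all genes, and the log2 fold change was 0.46 under and 0.79 over title number 100. Thus in MPP3 Cavin1 and Cav2 leaned in opposite directions without overlap. In either direction, 2.69% of all genes showed no overlap there.

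Cavin2 and Cavin3 gave less. For Cavin2 the log2 fold change was 0.86 ± 1.08 in LT-HSC and -0.27 ± 0.82 in MPP2 (edgeR adjusted p = 1 in both). In LT-HSC the summed megakaryocyte and platelet markers were 1092 to 1535 CPM in KO and 894 to 1003 CPM in WT, beside the higher Cavin2 of KO, and their part was not tested. In MPP3, where the counts were 61 in KO and 2 in WT, the ratio of levels was 34.1 with an exact 95% counting interval of 9.05 to 288 (edgeR adjusted p = 0.880). Without KO MPP3 3 the counts were 7 and 2, and the ratio was 5.56 (1.06 to 54.8). All 7 came from KO MPP3 2 and the 2 from WT MPP3 2. These intervals cover counting error only and not the spread between libraries, so they are no test of the KO. For Cavin3 in LT-HSC the log2 fold change was -0.12 ± 0.38 (edgeR adjusted p = 1). In MPP2 it was -0.34 ± 0.30 (edgeR adjusted p = 0.922) and in MPP3 0.55 ± 0.30 (0.913), and the groups overlapped in each. In MPP3 the highest were KO MPP3 1 and KO MPP3 2. Without these and KO MPP2 1, the 3 libraries rich in immunoglobulin or rRNA-associated reads, the value was -0.13.

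**Figure D4:**
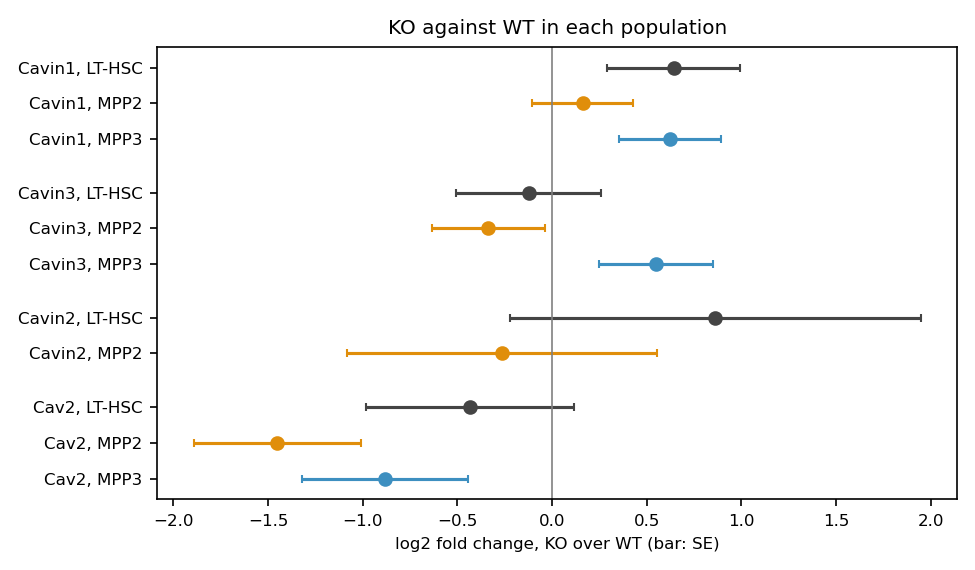
Log2 fold change of KO over WT (x axis, bars are SE) for each gene and population, from the edgeR fit of all 21 libraries; Cavin2 in MPP3 is left out because the WT counts are near 0. Cav2 lies left of 0 in all 3 populations and Cavin1 right of it (in MPP2 by less than its SE), and none has an edgeR adjusted p under 0.05.

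Whether the KO effect differed between populations was tested as an interaction. None of the 4 genes passed in any of the 3 contrasts (edgeR adjusted p of at least 0.999967), and no gene of the table did (0% called), while 759, 521 and 943 genes had an unadjusted p under 0.05 for LT-HSC against MPP2, LT-HSC against MPP3 and MPP2 against MPP3. Among these 4 genes an unadjusted p under 0.05 was seen once, for Cavin2 in MPP2 against MPP3. DESeq2 called 24, 26 and 15 genes, none of them a cavin or a caveolin. The KO comparisons of the 3 populations do not share libraries, but same-numbered libraries of 1 genotype may come from the same mouse.

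Other proteins of caveolae did not follow the cavins as a group. Of 24 listed accessory genes, 21 were tested. Summed levels of the list were 542 to 679 CPM in LT-HSC, 450 to 719 CPM in MPP2 and 548 to 686 CPM in MPP3, which overlapped. The muscle forms Cav3 and Cavin4 had 3 counts and 0 counts over all libraries. From LT-HSC over MPP2, 1 gene was higher and 2 were lower by edgeR, from LT-HSC over MPP3, 1 was higher and 0 lower, and from MPP2 over MPP3, 3 were higher and 2 lower. The medians were -0.20, 0.12 and 0.25, near those of all genes. Over all genes 7.82%, 6.41% and 6.87% were called in these comparisons. The shares higher in the first population were 4.14%, 3.82% and 3.93%, and the shares lower 3.68%, 2.59% and 2.94%.

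Ehd3, an ATPase of the family whose member Ehd2 sits at the neck of caveolae, was, like Cavin2, lowest in MPP3. It averaged 20.1 ± 6.45 CPM in LT-HSC (n = 5), 12.1 ± 11.4 CPM in MPP2 and 1.4 ± 1.31 CPM in MPP3 (n = 8 each). It was higher in LT-HSC than in MPP3 (log2 fold change 3.86 ± 0.71, edgeR adjusted p = 0.00183, at most 0.00837 over 27 alternatives) and in MPP2 than in MPP3 (3.06 ± 0.65, 0.00751, at most 0.0208). Ehd2 itself was low, averaging 1.21 CPM in LT-HSC, 1.39 CPM in MPP2 and 0.226 CPM in MPP3. Stom, the raft protein stomatin, was highest in MPP2, 17.5 ± 6.23 CPM in LT-HSC against 66.1 ± 20.6 CPM in MPP2 (log2 fold change -1.93 ± 0.31, edgeR adjusted p = 0.000947, at most 0.0190 over the alternatives). Its level in MPP2 was also above the 31.0 ± 14.1 CPM of MPP3 (edgeR adjusted p = 0.0111), a call lost when KO MPP2 1, KO MPP3 1 and KO MPP3 2 were left out (0.0522). Ehd1 in both MPP2 comparisons, Atp2b4, a calcium pump, in the same, and Flot1, a flotillin, in MPP2 against MPP3 made up the other calls, each lost under at least 1 alternative. For Ehd1 in LT-HSC against MPP2 the call was also lost with the replicate block (edgeR adjusted p = 0.123, against 0.0430 without it).

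The clathrin coat, the other main route into the cell, was likewise mixed, with 25 of 27 genes tested. From LT-HSC over MPP2, 3 were higher and 1 lower, from LT-HSC over MPP3, 2 were higher and 2 lower, and from MPP2 over MPP3, 2 were higher and 1 lower, with medians of -0.05, -0.12 and -0.20. Itsn1, the scaffold intersectin, averaged 74.0 ± 10.3 CPM in LT-HSC, 16.8 ± 6.91 CPM in MPP2 and 16.6 ± 10.01 CPM in MPP3, a course like that of Cav2. It was higher in LT-HSC than in MPP2 (log2 fold change 2.16 ± 0.38, edgeR adjusted p = 0.00165) and than in MPP3 (2.18 ± 0.38, 0.00106). Bin1, which bends membranes through its BAR domain, went the other way, with 12.9 ± 5.88 CPM in LT-HSC, 58.7 ± 20.3 CPM in MPP2 and 97.0 ± 25.9 CPM in MPP3. Its log2 fold changes were -2.16 ± 0.28 from LT-HSC over MPP2 (edgeR adjusted p = 0.000137) and -2.89 ± 0.29 from LT-HSC over MPP3 (3.65e-06). These 4 calls held under all 27 alternatives run. So did that of Cltb, a clathrin light chain, which was higher in LT-HSC (76.6 ± 17.7 CPM) than in MPP3 (30.7 ± 9.12 CPM, edgeR adjusted p = 0.000390).

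Of the enzymes and regulators that supply sterols and sphingolipids to such membranes, all 24 listed genes were tested. From LT-HSC over MPP2, 2 were higher and 1 lower, from LT-HSC over MPP3, 2 were higher and 0 lower, and from MPP2 over MPP3, 1 was higher and 1 lower, with medians of 0.11, 0.14 and 0.03. Sgms1, a sphingomyelin synthase, had 158 ± 34.4 CPM in LT-HSC, 80.7 ± 11.4 CPM in MPP2 and 73.2 ± 20.3 CPM in MPP3. It was higher in LT-HSC than in MPP2 (edgeR adjusted p = 0.00123) and than in MPP3 (log2 fold change 1.15 ± 0.17, adjusted p = 0.000201), under all 27 alternatives run. The other calls were Srebf2, the regulator of sterol synthesis, Sqle, an enzyme of that pathway, and Smpd1, a sphingomyelinase, each lost under at least 1 alternative. Against the KO, 0 genes of the accessory, clathrin and sterol lists passed in any population, by edgeR and by DESeq2.

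Caveolin and cavin genes are also markers of endothelium, stroma and fat, so markers of those cells were set beside them. Of the 14 endothelial markers 13 were tested. From LT-HSC over MPP2, 3 were higher and 0 lower, and from LT-HSC over MPP3, 3 were higher and 2 lower. From MPP2 over MPP3, 1 was higher and 3 lower. Over all genes tested, 4.14%, 3.82% and 3.93% were higher in these comparisons, and 3.68%, 2.59% and 2.94% lower. The median log2 fold changes of the endothelial markers were 0.44, 1.22 and 1.15, beside -0.03, -0.05 and -0.01 over all genes tested. Cdh5, the endothelial cadherin, had a median of 0.105 CPM in LT-HSC, 0.0380 CPM in MPP2 and 0.0896 CPM in MPP3, with a highest library of 5.21 CPM, in KO LT-HSC. Kdr averaged 6.91 CPM in LT-HSC, 1.16 CPM in MPP2 and 0.453 CPM in MPP3, and Lyve1 had 2 counts over all libraries, none of them in LT-HSC. The summed list was 175 to 279 CPM in LT-HSC, 133 to 249 CPM in MPP2 and 239 to 382 CPM in MPP3. The ranges of LT-HSC and MPP3 overlapped. Within the sum, Egfl7 averaged 178 CPM and Pecam1 81.9 CPM in MPP3, against 86.8 and 31.0 CPM in LT-HSC. Pecam1 and Egfl7, which blood progenitors also express, were lower in LT-HSC than in MPP3 (log2 fold change -1.34 ± 0.21 and -1.03 ± 0.24, edgeR adjusted p = 0.000430 and 0.0114), although the call of Egfl7 was lost without WT LT-HSC 2 (0.143). Tek went the other way, averaging 55.1, 23.1 and 4.42 CPM for LT-HSC, MPP2 and MPP3 libraries. The 14 stromal and fat cell markers summed to 6.14 to 44.5 CPM in LT-HSC, 14.8 to 31.9 CPM in MPP2 and 19.7 to 65.2 CPM in MPP3, with Adipoq at 0 in LT-HSC. Of the 10 stromal and fat cell markers tested, 0 were higher and 1 was lower in LT-HSC than in MPP2. Against MPP3, 1 was higher and 1 lower in LT-HSC, and 1 was higher in MPP2. The shares over all genes are those given above. The median log2 fold changes of the stromal and fat cell markers were 0.48, -0.81 and -0.01 in these comparisons. Cav1, itself a defining gene of endothelium and fat, was at 0 counts in all 5 LT-HSC libraries. The part of these cell types in the levels of the cavins and Cav2 was not tested. Of the 9 macrophage and 9 neutrophil markers, 0 passed in any comparison. Of the 10 B and plasma cell markers 1 did, Ighm, lower in LT-HSC than in MPP2. The Ighm call (edgeR adjusted p = 0.0400) was lost under 14 of the 27 alternatives. Neutrophil markers were high in single libraries, summing to 15049 CPM in KO MPP2 1, 4496 CPM in WT LT-HSC 2 and 1846 CPM in WT MPP3 1, against 5.20 to 327 CPM in the other 18.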

How the data were processed

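RNA was measured in 21 mouse bone marrow libraries, 3 KO and 2 WT LT-HSC, 4 KO and 4 WT MPP2, and 4 KO and 4 WT MPP3. The values are whole read counts per gene, as deposited by the authors. The submitters' processing notes name the aligner STAR and the genome build mm10. For the aligner's version, the counting program with its strand setting and the annotation release, the answer is the same: not given in the sources used here. Per the labels' protocols, the library kit does not mark strand, so reads of a gene and of an antisense gene that shares its bases cannot be told apart.

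From these counts, genes kept by filterByExpr (minimum count 10, 6 groups) were fitted with the edgeR 4.0.16 quasi-likelihood test in R 4.3.3, over all 21 libraries, with TMM factors and 9 comparisons. P-values were adjusted by Benjamini-Hochberg over all 21100 genes, with a threshold of 0.05. The SE of a log2 fold change is its size divided by the square root of F. Population comparisons average KO and WT. The 5 genes and all 11 lists were chosen with earlier results of these data known. Beside the 5 genes and Phf6, the text may name, per list and direction, the 4 genes with the largest called change and a mean of at least 10 CPM, and the 5 genes most alike to each member. Genes named outside this rule are marker genes and genes said to be chosen after their values were seen. Genes of the cell type lists are given mostly as counts, and 1 gene near in pattern to a member is not reported here. Gene positions and lengths are from GENCODE M21, which matched 54409 of 54446 IDs. Promoters are from RefSeq, where 4 of the 5 genes matched, and Cavin3 did not. That of Cavin1 is not shown because its start there differs from the GENCODE start. Counting intervals are exact at 95% and, like the floor of 3 counts, cover counting error only.

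Nothing in the labels says that the libraries of a group come from separate cultures, but the design names 4 pairs of mice, and p-values measure the spread between libraries. The replicate numbers of KO and WT mice were checked as pairs. Their deviations from the group means correlated above 0.1 in every pair of MPP2 (0.207 to 0.282), but not in LT-HSC (0.0390 and 0.0417) or in MPP3 (0.0807 to 0.141). Libraries of equal number also share the title number split, so these correlations cannot tell pairs of mice from that split. With only 2 WT LT-HSC libraries, their deviations mirror each other, and the LT-HSC values are not separate checks. No 2 libraries held identical counts. Alternatives were DESeq2 1.42.0, RLE factors, no filter, a replicate block, a title number term, each library left out, other CPM and length definitions, and each title number set alone. Leaving out KO MPP2 1, KO MPP3 1 and KO MPP3 2 together was added after seeing the data. The model fit was tested on simulated counts.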

Additional observations from a re-analysis of the deposited data

Results flagged for a closer look

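In 2 of 18 groups checked, a single library lay far from the others of its group. Chance gives about 1 such library in 20 groups where the values have a spread. In both flagged groups the other libraries were all at 0, so that rate does not apply to them. Cavin2 in WT MPP3 2 was at 0.0700 CPM, from 2 counts, while the other 3 WT MPP3 libraries had 0. Cav1 in KO MPP3 1 was at 0.0434 CPM, from 1 count, while the other 3 KO MPP3 libraries had 0. Both lie under the floor of 3 counts.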

How the results depend on the processing

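In the KO comparisons, 0 of the 4 tested genes were called under any of the 27 alternatives with a test. Counts of all genes called moved more. For KO against WT in LT-HSC, MPP2 and MPP3 edgeR called 1, 3 and 2 genes, DESeq2 28, 35 and 38, the replicate block 0, 11 and 5, and leaving out 1 library 0 to 1, 0 to 3 and 0 to 2. The title number term gave 0 in LT-HSC. For LT-HSC against MPP2, LT-HSC against MPP3 and MPP2 against MPP3, edgeR called 1649, 1353 and 1450 genes, DESeq2 2569, 2134 and 2387, and leaving out 1 library gave 540 to 2342, 627 to 1568 and 963 to 1697. Moves of over 1.5 times came, for LT-HSC versus MPP2, without WT LT-HSC 1 (575), WT LT-HSC 2 (540) or KO LT-HSC 1 (1094), for LT-HSC versus MPP3 without WT LT-HSC 1 (627) or WT LT-HSC 2 (664), and for MPP2 versus MPP3 without KO MPP2 3 (963). For MPP2 against MPP3 the replicate block called 2249 and the title number term 2324. Without KO MPP2 1, KO MPP3 1 and KO MPP3 2, LT-HSC against MPP2 had 2928 calls and KO against WT in MPP3 0. For the difference in KO effect, edgeR called 0 genes in all 3 contrasts, also leaving out any 1 library, and DESeq2 24, 26 and 15. The cause of these moves was not tested.

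Some uncalled values changed direction. Cavin3 for KO against WT in MPP3 was -0.13 without the 3 libraries (0.55 with all), and its KO effect in LT-HSC against MPP3 was 0.00. Cavin1, for the KO effect in LT-HSC against MPP3, was -0.01 with no filter, -0.08 with the replicate block and -0.05 with the title number term (0.02 otherwise). Leaving out 1 library gave -0.30 to 0.05 for Cavin3 in KO against WT LT-HSC. In KO against WT MPP2 it gave -0.09 to 0.34 for Cavin1 and -0.68 to 0.21 for Cavin2. For the KO effect it gave -0.31 to 0.19 for Cavin1 in LT-HSC against MPP3 and -0.82 to 0.10 for Cav2 in MPP2 against MPP3. Within title numbers, Cavin1 in KO against WT MPP2 turned under 100 (-0.33), Cav2 for the KO effect in MPP2 against MPP3 turned over 100 (0.44, against -0.57 with all), as did Cav2 in MPP2 against MPP3 (-0.42, against 0.17). Also within numbers under 100, Cavin2 in KO against WT MPP2 was 0.01 (-0.27 with all) and Cavin1 for the KO effect in LT-HSC against MPP3 -0.13. Leaving out 1 library gave -0.16 to 0.30 for Cav2 in MPP2 against MPP3. The replicate block changed no call of the 4 genes in the KO comparisons. Under other definitions of CPM or gene length, 56 mean levels moved by less than 1 SD and 4 by more. Over the alternatives the adjusted p of Cav2 in MPP2 was 0.204 to 0.930, and that of Cavin2 in MPP3 0.221 to 1. Same-numbered KO and WT libraries correlated above 0.1 in 4 of 4 pairs in MPP2, 3 of 4 in MPP3 and 0 of 2 in LT-HSC, and the design text names pairs of mice without saying that equal numbers mark them. Equal numbers also share the title number split, which the correlations cannot tell from pairs of mice. Depth limits what can be said of Cav1, and of Cavin2 in MPP3, to the few counts given.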
